A study of Mus musculus with 19 samples.

Results

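The 10 genes described here encode the deubiquitinase BAP1, its ASXL cofactors and the proteins that join the same complex in mammals. They are Asxl1, Asxl2, Bap1, Hcfc1, Ogt, Foxk1, Foxk2, Kdm1b, Mbd5 and Mbd6, and they were chosen by symbol as subunits and partners of this complex. All 10 of 10 were listed in all 19 libraries, among 16842 genes listed in at least 1 library. The counts came from mouse bone marrow cells that were used straight after isolation. Libraries were marked MT or WT, in a study of ASXL1 mutant proteins; the labels give no allele, promoter, strain, sex or treatment, and nothing that all groups share beyond tissue and handling. CD11b+ myeloid cells from mice aged 4 months (young) gave 3 MT and 4 WT libraries. CD11b+ cells from mice aged 18 months (old) gave 3 MT and 3 WT libraries. LK cells, by convention lineage-negative and c-Kit-positive progenitors, also from mice aged 18 months, gave 3 MT and 3 WT libraries. The labels do not say that replicates came from separate animals, so p-values measure only the spread between these libraries, which may be technical.

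BAP1 removes ubiquitin from histone H2A, the mark written by Polycomb repressive complex 1 (PRC1), and it is active only when an ASXL protein binds its C-terminal region. Around this pair, called PR-DUB, assemble the chromatin scaffold HCF1 (Hcfc1), the O-GlcNAc transferase OGT, the forkhead DNA-binding proteins FOXK1 and FOXK2, the H3K4 demethylase KDM1B, and the methyl-CpG-binding-domain proteins MBD5 and MBD6. Truncating ASXL1 mutations are frequent in clonal hematopoiesis and chronic myelomonocytic leukemia, which makes the supply of the partners in stem, progenitor and myeloid cells of interest.

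RefSeq promoter windows (GRCm38.p6, from 250 bases before to 50 bases after a start site) were found for 9 of the 10 genes, in 12 windows. Those of Asxl1, Asxl2, Bap1 and Hcfc1 are shown because these genes encode the ASXL paralogs, their enzyme and its scaffold, whose levels are compared below. Capitals mark matches, on either strand, to letters bound by factors that recruit HCF1 or are common at promoters: CCGGAAG (GABPA and other ETS factors), CACGTG (E-box), and the longer THAP11 and ZNF143 motif and YY1 motif, whose letters stand in capitals in the Asxl1 and Hcfc1 windows. In the THAP11 and ZNF143 motif the pair of bases before the last TCCC could be any. NRF1 and CREB and ATF (TGACGTCA) motifs were searched as well. None of the matches printed overlaps another.
Asxl1, chr2:153345580-153345879, plus strand: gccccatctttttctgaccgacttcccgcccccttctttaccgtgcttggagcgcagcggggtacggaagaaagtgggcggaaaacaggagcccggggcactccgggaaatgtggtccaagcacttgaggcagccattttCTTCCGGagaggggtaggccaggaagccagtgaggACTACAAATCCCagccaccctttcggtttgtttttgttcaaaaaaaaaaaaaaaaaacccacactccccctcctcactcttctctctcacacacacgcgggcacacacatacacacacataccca
Asxl2, chr12:3426607-3426906, plus strand: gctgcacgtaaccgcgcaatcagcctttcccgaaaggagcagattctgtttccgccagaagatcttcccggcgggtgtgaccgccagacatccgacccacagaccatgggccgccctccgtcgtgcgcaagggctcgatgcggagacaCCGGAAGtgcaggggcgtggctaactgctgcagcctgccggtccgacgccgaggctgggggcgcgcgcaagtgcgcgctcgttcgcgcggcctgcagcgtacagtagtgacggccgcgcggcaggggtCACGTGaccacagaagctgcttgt
Bap1, chr14:31251239-31251538, plus strand: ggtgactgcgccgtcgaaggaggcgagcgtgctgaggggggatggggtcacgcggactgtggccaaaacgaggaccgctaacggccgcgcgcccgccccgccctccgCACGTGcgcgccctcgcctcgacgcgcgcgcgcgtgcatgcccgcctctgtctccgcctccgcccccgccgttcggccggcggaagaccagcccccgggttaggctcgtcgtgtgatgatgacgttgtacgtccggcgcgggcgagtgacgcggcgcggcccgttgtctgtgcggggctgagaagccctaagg
Hcfc1, chrX:73966308-73966607, minus strand: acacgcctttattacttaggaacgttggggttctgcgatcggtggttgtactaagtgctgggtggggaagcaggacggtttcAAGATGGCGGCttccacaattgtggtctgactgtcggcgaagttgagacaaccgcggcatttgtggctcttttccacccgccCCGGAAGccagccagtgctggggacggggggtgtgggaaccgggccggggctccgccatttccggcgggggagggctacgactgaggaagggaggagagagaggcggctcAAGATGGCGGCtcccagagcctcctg

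The Asxl1 window held the THAP11 and ZNF143 letters at position -75 and the GABPA letters at -110, counted from the start site. The THAP11 and ZNF143 letters occurred in 1.81% of all 32841 RefSeq windows of this length. No other of the 9 genes with a window had them, and Foxk1, without a window, was not searched. Asxl2 shared the GABPA letters (at -102), which 8.86% of windows hold, and had an E-box at 26, which 7.15% hold. Bap1 had an E-box at -143. Hcfc1 had the YY1 letters at both -168 and 24, a match found in 0.633% of windows, and the GABPA letters at -86. Of the windows not shown, 1 of Mbd5 held the GABPA letters and an E-box and 1 of Mbd6 held the NRF1 letters, which 0.971% hold, while those of Ogt, Foxk2 and Kdm1b held none. The CREB and ATF letters, in 1.79% of windows, were in no window of these genes. A match is a description of the letters only.

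Asxl1, the gene the study is about, was at similar levels in MT and WT CD11b cells. Levels are given as depth-scaled counts (CPM) on 1 scale fitted over all 19 libraries. In young MT cells the 3 libraries read 202, 202 and 205 CPM, and in young WT cells the 4 libraries read 204, 217, 232 and 236 CPM. The groups overlapped by the lowest WT library, and the edgeR quasi-likelihood test gave a log2 fold change of -0.13 ± 0.06 (SE) with adjusted p = 0.999. Old MT libraries read 285, 289 and 297 CPM and old WT libraries 305, 278 and 289 CPM. In LK cells the MT libraries read 97.3, 92.4 and 95.6 CPM and the WT libraries 106, 116 and 117 CPM, without overlap. Counts over the whole gene (chr2:153345829-153404007, plus strand) do not separate mutant from normal transcripts, so they check no genotype label. Asxl1 shares 197 exonic bases with a gene on the opposite strand, and opposite-strand overlaps also touch Asxl2, Kdm1b and Mbd5; whether counting used strand is not given in the sources used here.

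**Figure D1:**
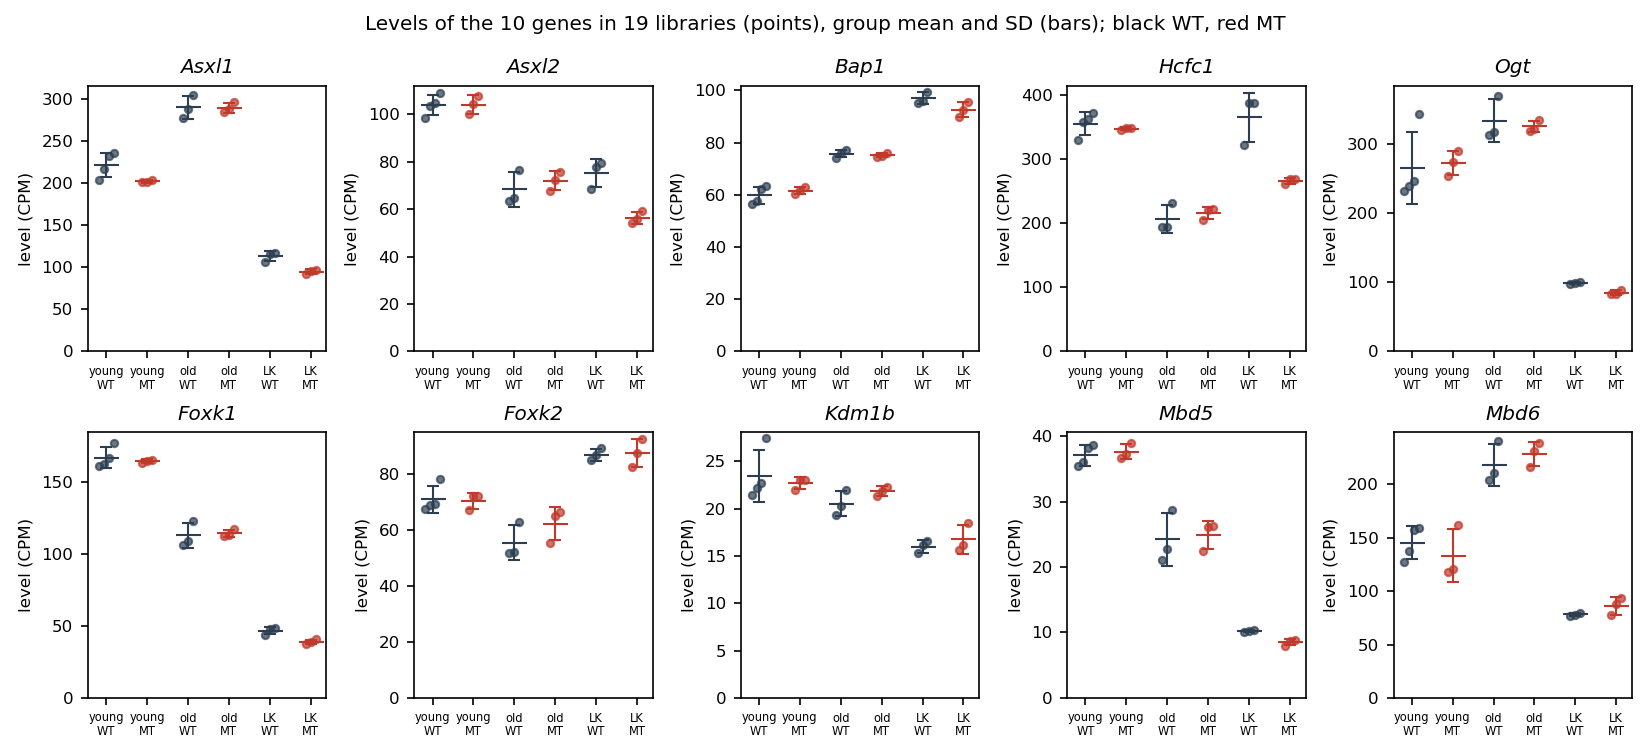
Level of each gene (CPM, y axis from 0) in each of the 19 libraries (points), by cell group on the x axis, with the mean and SD of each group as bars (black WT, red MT; 3 libraries a group, 4 for young WT). LK cells stand below both CD11b groups for Asxl1, Ogt, Foxk1, Kdm1b, Mbd5 and Mbd6, and above them for Bap1 and Foxk2.

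Sequencing depth did not limit the genes. Library totals were 26251822 to 38347903 counts in young CD11b, 41909460 to 68260809 in old CD11b and 31853263 to 59882448 in LK cells, and the lowest count of any of the 10 genes in any library was 420 (Mbd5, LK WT). All 10 passed the low-count filter in every comparison. The sorts were checked on Itgam, which encodes CD11b, at 45.2 to 85.6 CPM in LK and 1480 to 3462 CPM in CD11b libraries, and on Kit, at 170 to 219.8 CPM in LK, 97.5 to 115 CPM in young CD11b and 62.1 to 69.4 CPM in old CD11b libraries, a smaller gap. Among the 18-month libraries, replicates 2 and 3 of a group were closer to each other (chi-square per degree of freedom 3.02 to 6.74 over 4 pairs) than either was to replicate 1 (14.6 to 47.6 over 8 pairs), above sampling noise in each case. The young libraries were mixed for sex-linked RNA: MT replicate 3 and WT replicate 4 carried Y-linked Ddx3y, and the other 5 carried Xist. All 18-month libraries carried Ddx3y. Young, old and LK libraries were listed with different gene sets (15703, 15070 and 15793 genes), so cell type or age cannot be told apart from the set in which a library was counted. In bulk samples fewer cells of a type and less RNA per cell cannot be told apart.

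Within a group, levels were compared between genes only per kilobase of exon (CPM per kb). Ogt was highest in all 4 CD11b groups, at 50.5 ± 3.26 (SD, n = 3) in young MT, 49.2 ± 9.71 (n = 4) in young WT, 60.3 ± 1.56 in old MT and 61.8 ± 5.79 in old WT cells. In LK cells Hcfc1 was highest, at 32.2 ± 0.549 in MT and 44.2 ± 4.59 in WT, and Bap1 was next, at 26.8 ± 0.815 and 28.0 ± 0.648. In old CD11b cells Mbd6 was next after Ogt, at 53.3 ± 2.63 in MT and 50.8 ± 4.54 in WT, followed by Asxl1 at 41.5 ± 0.880 and 41.6 ± 1.95. In young CD11b cells Hcfc1 was next after Ogt, at 42.1 ± 0.306 in MT and 43.0 ± 2.19 in WT; Mbd6 (31.1 ± 5.82 and 33.8 ± 3.57) and Asxl1 (29.0 ± 0.248 and 31.8 ± 2.09) followed, within their spread of each other. Asxl2 stayed well under Asxl1 in each of the 6 groups, between 4.73 and 8.72 CPM per kb. Kdm1b (3.20 to 4.70) and Mbd5 (0.709 to 3.15) were the lowest in each group.

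The comparison of LK with old CD11b cells asks how the complex's genes differ between progenitors and CD11b+ myeloid cells of 1 age. The 4 cycling-cell markers (Mki67, Top2a, Ccnb1 and Cdk1) summed to 1834 to 2137 CPM in old CD11b and 1615 to 2183 CPM in LK libraries. Ccnb1 and Cdk1 alone had higher means in LK cells. The part of cycling in the differences was not tested. Asxl1, Ogt, Foxk1, Kdm1b, Mbd5 and Mbd6 were lower in LK cells in both genotypes, and Bap1, Hcfc1 and Foxk2 were higher. In WT libraries 9 of the 10 genes passed the test, 3 higher and 6 lower, where 86.8% of all 13710 genes tested were called (45.1% higher, 41.7% lower). In MT libraries 10 passed, 3 higher and 7 lower, against 87.8% of 13828 (45.9% higher, 41.9% lower). The share is near that of all genes in both, so the counts say little about these genes, and the directions and sizes below are the description.

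Ogt, the only nuclear and cytosolic O-GlcNAc transferase and a binding partner of HCF1, was lowest in LK relative to CD11b cells. Its WT libraries read 101, 97.0 and 99.5 CPM in LK and 369, 313 and 317 CPM in old CD11b cells. Its MT libraries read 89.0, 82.8 and 83.3 CPM in LK and 335, 322 and 319 CPM in old CD11b cells. No LK library came near any CD11b library, and the level in LK was 3.60-fold lower in WT (log2 fold change -1.85 ± 0.07, adjusted p = 3.72e-08) and 4.10-fold lower in MT (-2.04 ± 0.05, adjusted p = 2.40e-10).

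Asxl1 was 2.75-fold lower in WT LK cells (log2 fold change -1.46 ± 0.07, adjusted p = 9.80e-08) and 3.27-fold lower in MT LK cells (-1.71 ± 0.04, adjusted p = 2.22e-10). Its paralog Asxl2, the alternative BAP1 cofactor, read 68.7, 79.6 and 78.0 CPM in WT LK cells and 76.6, 64.8 and 63.5 CPM in WT old CD11b cells, which overlap (log2 fold change 0.05 ± 0.09, adjusted p = 0.651). With a per-library trend on gene length and GC content removed it was called higher in WT LK cells (0.36 ± 0.05, adjusted p = 0.000129). In MT libraries Asxl2 read 59.2, 54.2 and 55.9 CPM in LK and 67.6, 75.7 and 72.5 CPM in CD11b cells, without overlap (-0.45 ± 0.05, adjusted p = 1.88e-05). With the same trend removed the MT call turned direction, to 0.23 ± 0.03 (adjusted p = 0.000169), so under that fit Asxl2 was higher in LK cells in both genotypes.

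Bap1, the catalytic subunit, was higher in LK cells in both genotypes. It read 95.4, 96.1 and 99.6 CPM in WT LK cells and 74.3, 76.2 and 77.1 CPM in WT old CD11b cells (log2 fold change 0.26 ± 0.05, adjusted p = 0.00102). In MT libraries it read 90.0, 92.4 and 95.6 CPM against 74.6, 74.9 and 76.1 CPM (0.20 ± 0.04, adjusted p = 0.000568). These are 1.20-fold and 1.15-fold differences, in groups that did not overlap.

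Hcfc1, which tethers BAP1 to transcription factors, read 322, 387 and 388 CPM in WT LK cells against 233, 195 and 194 CPM in WT old CD11b cells. It was 1.65-fold higher there (log2 fold change 0.72 ± 0.11, adjusted p = 0.000210). In MT libraries it read 269, 261 and 269 CPM against 205, 222 and 222 CPM, 1.15-fold higher (0.20 ± 0.04, adjusted p = 0.00166). The MT value depended on the processing: the call was lost with DESeq2 and with DESeq2's size factors in edgeR, and the value was 0.75 ± 0.03 (adjusted p = 3.98e-08) with the length and GC trend removed. Foxk2 in MT also moved by over 1.5 times under that step, to 0.65 (adjusted p = 2.36e-05), as did Kdm1b in MT, to -0.24 (adjusted p = 0.0176), and Mbd5 in MT, to -1.09 (adjusted p = 6.50e-07).

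The FOXK paralogs, forkhead DNA-binding proteins that recruit BAP1 to chromatin, moved in opposite directions. Foxk1 read 44.1, 48.5 and 47.8 CPM in WT LK cells against 123, 109.5 and 107 CPM in WT old CD11b cells, 2.58-fold lower (log2 fold change -1.37 ± 0.08, adjusted p = 3.16e-07). Foxk2 read 89.2, 86.7 and 85.0 CPM against 62.8, 51.8 and 52.1 CPM, 1.46-fold higher (0.55 ± 0.08, adjusted p = 0.000175). In MT libraries Foxk1 was 3.14-fold lower (-1.65 ± 0.04, adjusted p = 3.73e-10) and Foxk2 1.31-fold higher (0.39 ± 0.07, adjusted p = 0.000476). The ratio of Foxk1 to Foxk2 counts within a library was 1.96 to 2.11 in old WT CD11b cells and 0.494 to 0.562 in WT LK cells, so the more abundant paralog by counts changed between the cell types in every library.

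The MBD proteins bind the BAP1 complex directly through their MBD domains. Mbd6 read 77.8, 79.9 and 76.8 CPM in WT LK cells against 240.4, 210.4 and 204 CPM in WT old CD11b cells (log2 fold change -1.58 ± 0.07, adjusted p = 7.98e-08). Mbd5 read 10.1, 10.4 and 10.2 CPM against 28.7, 22.8 and 21.1 CPM (-1.34 ± 0.12, adjusted p = 7.01e-06). In MT libraries the values were -1.51 ± 0.07 for Mbd6 (adjusted p = 1.91e-08) and -1.66 ± 0.08 for Mbd5 (adjusted p = 2.86e-08). Kdm1b, the FAD-dependent demethylase, was lower too, from 20.5 ± 1.33 (SD, n = 3) to 16.0 ± 0.654 CPM in WT (-0.46 ± 0.07, adjusted p = 0.000300) and by -0.48 ± 0.07 in MT (adjusted p = 0.000149).

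**Figure D2:**
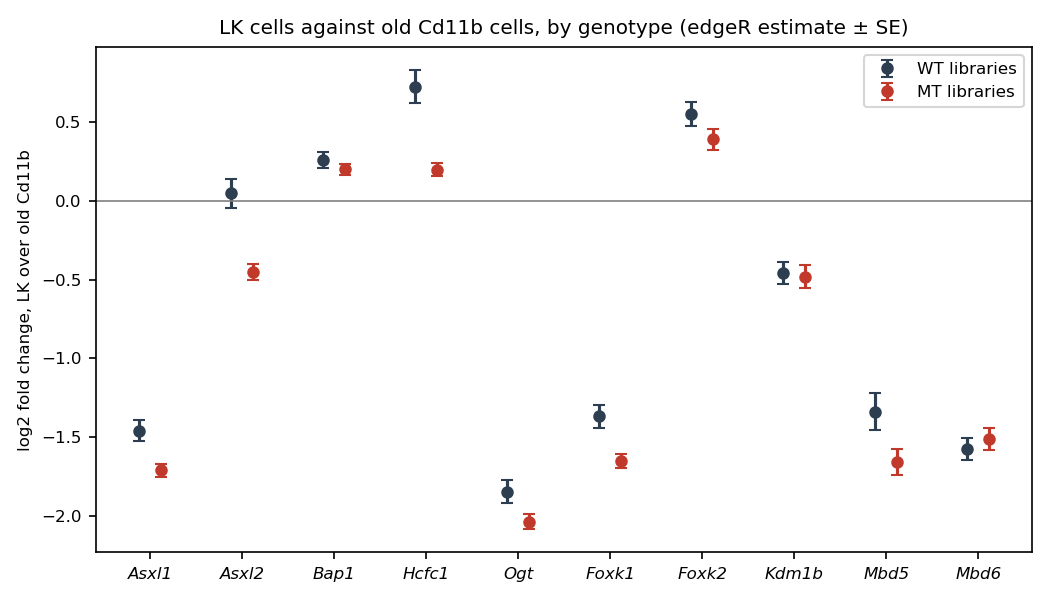
Log2 fold change of each gene (x axis) in LK over old CD11b cells (y axis, edgeR estimate ± SE), in WT (black) and MT (red) libraries. Bap1, Hcfc1 and Foxk2 lie above 0 in both genotypes, and Ogt lies lowest at -1.85 and -2.04.

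Related genes, from lists that are broader than the complex, also differed between LK and old CD11b cells, as most genes did. The counts below are read beside the 86.8% of all genes called in WT libraries (45.1% higher, 41.7% lower). In WT libraries 7 of 9 tested paralogs of the complex's genes were higher and 2 lower in LK cells; their median difference was 0.74 on the log2 scale, beside 0.08 over all genes. Uchl3, a ubiquitin hydrolase of BAP1's family, was 2.67-fold higher (adjusted p = 1.74e-06), and Hcfc2, the HCF1 paralog, fell to 17.4 from 36.6 CPM (adjusted p = 1.60e-07). Of 24 PRC1 genes 13 were higher and 10 lower, with Cbx6 16.1-fold higher (adjusted p = 2.46e-09) and Yaf2 lower by -1.41 ± 0.05 on the log2 scale (adjusted p = 1.36e-08). Of 8 other H2A deubiquitinases 2 were higher, Brcc3 and Usp16, and 6 were lower, among them Usp12 (-1.37 ± 0.05, adjusted p = 4.33e-08) and Usp46 (-1.33 ± 0.06, adjusted p = 8.66e-08). Among 22 genes of HCF1 partners, H3K4 methyltransferases and O-GlcNAc cycling 7 were higher and 14 lower. Ube2o, the ubiquitin ligase that retains BAP1 in the cytoplasm, was 3.30-fold higher (adjusted p = 9.56e-08). Mgea5, now called Oga, which removes the sugar that OGT adds, was lower by -1.51 ± 0.06 (adjusted p = 3.96e-08). The ratio of Ogt to Mgea5 counts stayed between 0.714 and 1.17 over all 19 libraries while both genes fell, and was 0.815 ± 0.0555 (SD, n = 3) in WT LK and 1.03 ± 0.117 in WT old CD11b cells.

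The genotype comparison within each cell group asks which of the complex's genes changed with the MT label. In CD11b cells none did. In young cells 0 of the 10 genes passed the test, where 0% of 13755 genes were called, with log2 fold changes from -0.13 (Asxl1) to 0.04 (Bap1). In old cells 0 of 10 passed, where 0.336% of 13398 genes were called, with log2 fold changes from -0.04 (Ogt) to 0.16 (Foxk2). At an unadjusted p under 0.05 the count was also 0 in both ages, and DESeq2 called 0 as well. For Asxl1 the 95% interval (normal approximation) of the MT over WT ratio was 0.835 to 0.995 in young and 0.936 to 1.05 in old cells, and for Bap1 0.947 to 1.12 and 0.937 to 1.04. With so few libraries the normal approximation is too narrow. The young Asxl1 interval leaves out 1, while its unadjusted edgeR p was 0.0652. The related lists had no called gene in either age. Without old WT replicate 1, Hcfc1 and Foxk2 were called higher in old MT cells. In that fit 13.3% of 13663 genes were called, 949 of them higher.

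In LK cells 6 of the 10 genes were lower in MT and none was higher, where 29.8% of 14113 genes were called, 13.9% as higher and 15.9% as lower. Hcfc1, Asxl2, Mbd5, Foxk1, Asxl1 and Ogt were lower by 1.19-fold to 1.40-fold. Their MT and WT libraries did not overlap, but these genes were picked by a test on the same values. The share of all genes without overlap was not counted. Bap1, Foxk2, Kdm1b and Mbd6 did not pass the test. The median log2 fold change over the 10 genes was -0.26, beside 0.02 over all genes tested. All of these calls were lost when replicates 2 and 3 of each group were summed and counted as 1 library (adjusted p from 0.175 to 0.234), at log2 fold changes from -0.43 (Hcfc1) to -0.22 (Ogt).

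Hcfc1 was the gene with the largest difference among the 10: 269, 261 and 269 CPM in MT against 322, 387 and 388 CPM in WT LK libraries, with WT replicate 1 nearest to MT (log2 fold change -0.49 ± 0.08, adjusted p = 0.00795). Asxl2 read 59.2, 54.2 and 55.9 CPM in MT against 68.7, 79.6 and 78.0 CPM in WT (-0.45 ± 0.07, adjusted p = 0.00777). These were the only genes of the 10 that passed when any single LK library was left out, and also with the length and GC trend removed, where they were smaller: -0.28 ± 0.04 for Hcfc1 (adjusted p = 0.00600) and -0.18 ± 0.03 for Asxl2 (adjusted p = 0.0106). Longer genes tended to be lower in MT LK cells (Spearman's rho = -0.466 between exon length and log2 fold change over 13739 genes, which are not independent replicates); over all genes the step moved the split from 1960 higher and 2246 lower to 978 higher and 1750 lower. The exons of Asxl2 add up to 11937 bases and those of Hcfc1 to 8273.

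Asxl1 was lower in MT by -0.28 ± 0.06 (adjusted p = 0.0119), Foxk1 by -0.29 ± 0.06 (adjusted p = 0.0135) and Ogt by -0.25 ± 0.05 (adjusted p = 0.0101), all on the log2 scale. Foxk1 read 40.7, 37.7 and 38.9 CPM in MT against 44.1, 48.5 and 47.8 CPM in WT LK cells. Mbd5 read 8.65, 8.83 and 7.95 CPM against 10.1, 10.4 and 10.2 CPM (-0.30 ± 0.08, adjusted p = 0.0225). With the length and GC trend removed, Asxl1 was at -0.11 (adjusted p = 0.0525), Ogt at -0.12 (0.0715), Foxk1 at -0.10 (0.0776) and Mbd5 at -0.07 (0.578), none of them called. Asxl1, Foxk1 and Mbd5 also lost the call without MT replicate 2, MT replicate 3, WT replicate 2 or WT replicate 3, and Ogt without MT replicate 2 or 3.

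The other members differed by less. Bap1 read 90.0, 92.4 and 95.6 CPM in MT against 95.4, 96.1 and 99.6 CPM in WT LK cells, which overlap (log2 fold change -0.10 ± 0.04, adjusted p = 0.112). Foxk2 had -0.02 ± 0.04 (adjusted p = 0.761), Kdm1b 0.04 ± 0.07 (0.693) and Mbd6 0.11 ± 0.06 (0.194). Without MT replicate 1 Mbd6 was called higher, and without WT replicate 1 Bap1 was called lower. Within libraries, the ratio of Asxl1 to Asxl2 counts was 1.64 to 1.71 in MT and 1.46 to 1.55 in WT LK cells, and that of Mbd6 to Mbd5 was 8.92 to 11.8 and 7.50 to 7.72.

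**Figure D3:**
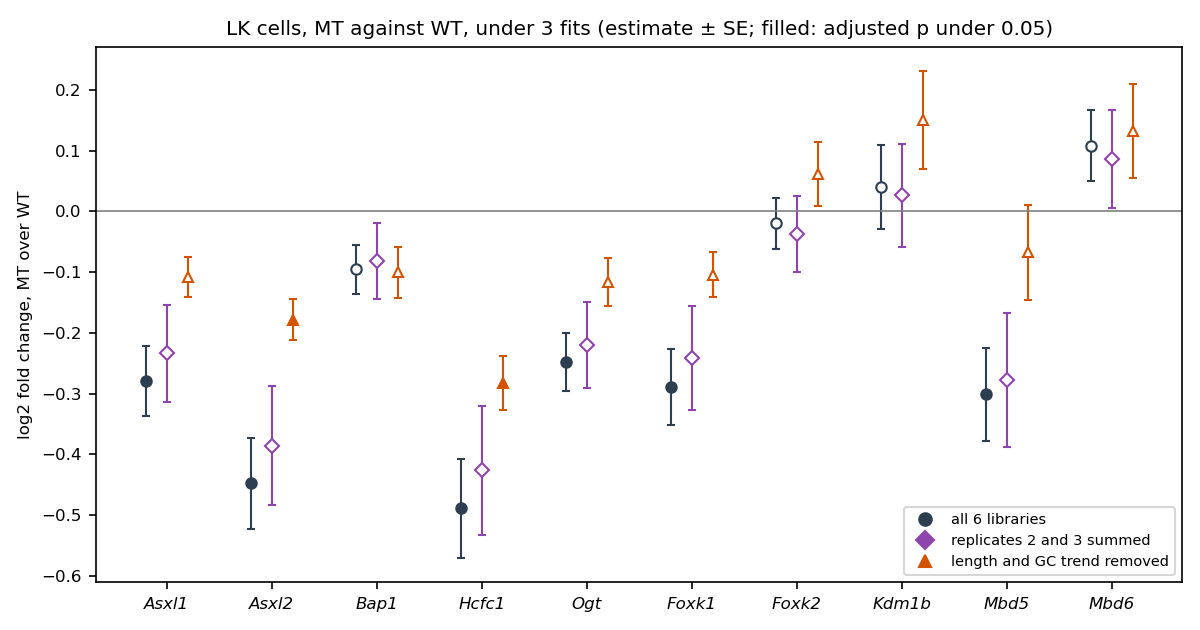
Log2 fold change (y axis, estimate ± SE) of each gene (x axis) in MT over WT LK cells under 3 fits, with filled symbols where the adjusted p was under 0.05. The 6 genes called with all 6 libraries stay below 0 under each fit, 2 of them (Asxl2 and Hcfc1) remain called with the length and GC trend removed, and none is called with replicates 2 and 3 summed.

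Markers of other cells moved with the MT label in LK cells. The summed level of 6 maturing-neutrophil markers (6 of 6 listed, Ly6g, Cxcr2, Mmp8, S100a8, S100a9 and Retnlg) was 877 to 2632 CPM in MT and 388 to 737 CPM in WT LK libraries; most of it was S100a8 and S100a9, and Ly6g was at most 1.31 CPM. The 4 neutrophil-progenitor markers summed to 13515 to 16749 CPM in MT and 11820 to 13439 CPM in WT, and the 4 monocyte markers to 818 to 951 and 652 to 776 CPM. Most of the monocyte sum was Ly6c2 (681 to 817 CPM in MT, 499.7 to 614 CPM in WT), while Csf1r (57.4 to 63.4 and 67.7 to 72.8 CPM) and Ccr2 (60.9 to 65.7 and 76.7 to 81.0 CPM) were lower in MT without overlap. The 6 progenitor markers summed to 904 to 961 CPM in MT and 977 to 990 CPM in WT, and the 4 markers of cycling cells to 1615 to 1709 and 1906 to 2183 CPM. Within these sums Gata2 (mean 83.8 CPM in MT and 78.6 in WT), Meis1 (28.8 and 23.6) and Cdk1 (146 and 139) were higher in MT, with overlap. The other markers of both lists had lower means in MT. Megakaryocyte markers (3 of 3 listed) summed to 198 to 286 CPM in MT and 158 to 190 CPM in WT, T and NK cell markers (4 of 4) to 184 to 239 and 149 to 183 CPM, most of it Nkg7, with Cd3e at most 1.66 CPM, and stromal markers (3 of 3) to 42.6 to 51.0 and 51.9 to 56.5 CPM, while B cell and erythroid markers overlapped. Most of the stromal sum was Pecam1 (mean 34.9 CPM in MT and 43.8 in WT), while mean Cxcl12 was higher in MT (10.9 and 9.59 CPM). The part of all these markers in the lower levels of the 6 genes was not tested.

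Calls in the related lists are read beside the 13.9% of all genes called higher and 15.9% called lower in MT LK cells; with replicates 2 and 3 summed only 3 of 14512 genes were called at all. Of 24 PRC1 genes 8 were lower and 1, Cbx6, was higher (log2 fold change 0.24 ± 0.06, adjusted p = 0.0177), and the lower ones included Mga (-0.49 ± 0.08, adjusted p = 0.00833) and Pcgf3 (-0.45 ± 0.06, adjusted p = 0.00627), subunits of variant PRC1. Of 8 other H2A deubiquitinases 4 were lower and 0 higher, with Mysm1 at -0.42 ± 0.09 (adjusted p = 0.0143). Of 22 HCF1-partner, methyltransferase and O-GlcNAc genes 10 were lower and 2 higher, with Gabpa, an ETS factor, at -0.34 ± 0.04 (adjusted p = 0.00627). Wbp7 (Kmt2b), an H3K4 methyltransferase, was at -0.38 ± 0.06 (adjusted p = 0.00698), and the small shared subunit gene Dpy30 was higher (0.17 ± 0.04, adjusted p = 0.0188). Of 9 tested paralogs of the complex's genes 3 were higher and 2 lower, with Uchl3 at 0.28 ± 0.06 (adjusted p = 0.0127) and Mbd1 at -0.20 ± 0.05 (adjusted p = 0.0156).

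Whether the MT difference itself differed between LK and old CD11b cells was tested with an interaction term over the 12 libraries aged 18 months. It passed for 4 of the 10 genes, all lower in LK, where 20.7% of 13996 genes were called, 8.79% as higher and 12% as lower. Hcfc1 had the largest interaction (log2 difference of differences -0.55 ± 0.13, adjusted p = 0.0132), followed by Asxl2 (-0.52 ± 0.12, adjusted p = 0.0144), Foxk1 (-0.31 ± 0.09, adjusted p = 0.0370) and Asxl1 (-0.28 ± 0.08, adjusted p = 0.0313). Ogt (-0.21 ± 0.09, adjusted p = 0.110) and Mbd5 (-0.34 ± 0.15, adjusted p = 0.127), although lower in MT LK cells, did not pass. With the length and GC trend removed Hcfc1 alone passed (-0.28 ± 0.08, adjusted p = 0.0319), and with replicates 2 and 3 summed none did. Asxl1 and Foxk1 lost the call without replicate 2 or 3 of any of the 4 groups. Without old WT replicate 1 Ogt, Foxk2 and Mbd5 passed as well, where 29.6% of 14089 genes were called. The same interaction with age in CD11b cells passed for 0 of the 10 genes, where 0.0214% of 14024 were called; an unadjusted p under 0.05 was reached by 0 of them, and values ran from -0.08 (Ogt) to 0.19 (Mbd6). DESeq2 also called none.

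Old and young CD11b cells differed in most of the genes, as in most genes measured. In WT libraries 8 of 10 passed, 3 higher and 5 lower in old cells, where 73.1% of 13719 genes were called (36.1% higher, 36.9% lower). In MT libraries 9 passed, 4 higher and 5 lower, where 71.7% of 13584 were called (35.2% higher, 36.5% lower). Asxl1, Bap1 and Mbd6 were higher in old cells in both genotypes, and Asxl2, Hcfc1, Foxk1, Foxk2 and Mbd5 were lower in both.

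Asxl1 rose 1.29-fold with age in WT (log2 fold change 0.37 ± 0.07, adjusted p = 0.000654) and 1.39-fold in MT cells (0.48 ± 0.05, adjusted p = 1.49e-05), from the libraries given above, which did not overlap between ages. Asxl2 read 104, 98.6, 105 and 109 CPM in young and 76.6, 64.8 and 63.5 CPM in old WT cells (-0.63 ± 0.07, adjusted p = 2.47e-05). The ratio of Asxl1 to Asxl2 counts was 1.97 to 2.22 in young and 3.98 to 4.55 in old WT cells, and 1.90 to 2.01 and 3.81 to 4.21 in MT cells. With the length and GC trend removed Asxl2 turned direction and was higher in old cells, by 0.34 ± 0.06 in WT (adjusted p = 0.000371) and 0.32 ± 0.06 in MT (adjusted p = 0.000874).

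Bap1 read 62.1, 63.3, 56.5 and 57.5 CPM in young and 74.3, 76.2 and 77.1 CPM in old WT cells (log2 fold change 0.32 ± 0.06, adjusted p = 0.000692). Hcfc1 read 372, 362, 359 and 330.1 CPM in young and 233, 195 and 194 CPM in old WT cells, a fall of 1.74-fold (-0.80 ± 0.08, adjusted p = 7.22e-06), and in MT cells the value was -0.73 ± 0.05 (adjusted p = 2.05e-06). With the length and GC trend removed neither was called, at -0.14 (adjusted p = 0.0744) in WT and -0.12 (adjusted p = 0.100) in MT. Ogt read 232, 239, 247 and 343 CPM in young WT cells, where replicate 4 stood apart and overlapped the old libraries. Its difference was 0.31 ± 0.13 in WT (adjusted p = 0.0576) and 0.21 ± 0.06 in MT (adjusted p = 0.00934). With a covariate for sex-linked expression the value was -0.06 in WT and 0.13 in MT. Every old library carried Ddx3y, so that fit set them against young WT replicate 4 alone and young MT replicate 3 alone. DESeq2, the replicate block (0.45, adjusted p = 0.000956) and the fit without young WT replicate 4 called Ogt higher in WT. Number 4 occurs only in young WT, so the block also takes that library out of the estimated age difference. With the length and GC trend removed Ogt was called higher in both, at 0.71 in WT and 0.57 in MT.

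Foxk1 fell to 113 from 167 CPM in WT cells (log2 fold change -0.58 ± 0.07, adjusted p = 1.94e-05) and Foxk2 1.29-fold lower (-0.37 ± 0.08, adjusted p = 0.00208). In MT cells Foxk2 (-0.22 ± 0.07, adjusted p = 0.0229) lost the call without young MT replicate 1, young MT replicate 2 or old MT replicate 1, at an adjusted p from 0.0607 to 0.0746. With the sex-linked covariate, which set old MT cells against young MT replicate 3 alone, Foxk2 was at -0.15. Mbd6 and Mbd5 moved in opposite directions. Mbd6 read 127, 138, 157 and 159 CPM in young and 240.4, 210.4 and 204 CPM in old WT cells (0.57 ± 0.09, adjusted p = 0.000204), and Mbd5 read 35.4, 36.0, 38.2 and 38.7 CPM against 28.7, 22.8 and 21.1 CPM (-0.63 ± 0.10, adjusted p = 0.000198). The ratio of Mbd6 to Mbd5 counts was 3.60 to 4.12 in young and 8.36 to 9.66 in old WT cells. Kdm1b passed in neither genotype (-0.21 ± 0.09, adjusted p = 0.0667 in WT, and -0.09 ± 0.07, adjusted p = 0.218 in MT). It was called lower in WT without young WT replicate 4 (-0.25, adjusted p = 0.0309) and higher in MT with the length and GC trend removed (0.21, adjusted p = 0.0166).

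With the length and GC trend removed, 5 of the 10 genes were called in WT, all higher in old cells (Asxl1, Asxl2, Bap1, Ogt and Mbd6), and 6 in MT, the same 5 and Kdm1b, again all higher. With the sex-linked covariate, against young MT replicate 3 alone, Mbd6 in MT was 0.46, beside 0.74 without the covariate. With the trend removed the rise of Asxl1 was then 0.94 in WT and 1.01 in MT, and that of Mbd6 1.19 and 1.30, while Foxk1, Foxk2 and Mbd5 were called in neither genotype. That step raised the median of all genes to 0.17 from -0.02 and moved the split over all genes from 4959 higher and 5068 lower to 6240 higher and 3957 lower in WT, and from 4783 and 4958 to 5947 and 3806 in MT libraries. Maturing-neutrophil markers summed to 20932 to 32416 CPM in the 7 young and 75262 to 97616 CPM in the 6 old CD11b libraries, and the progenitor markers to 394 to 495 and 168 to 182 CPM. Their part in the differences with age was not tested.

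**Figure D4:**
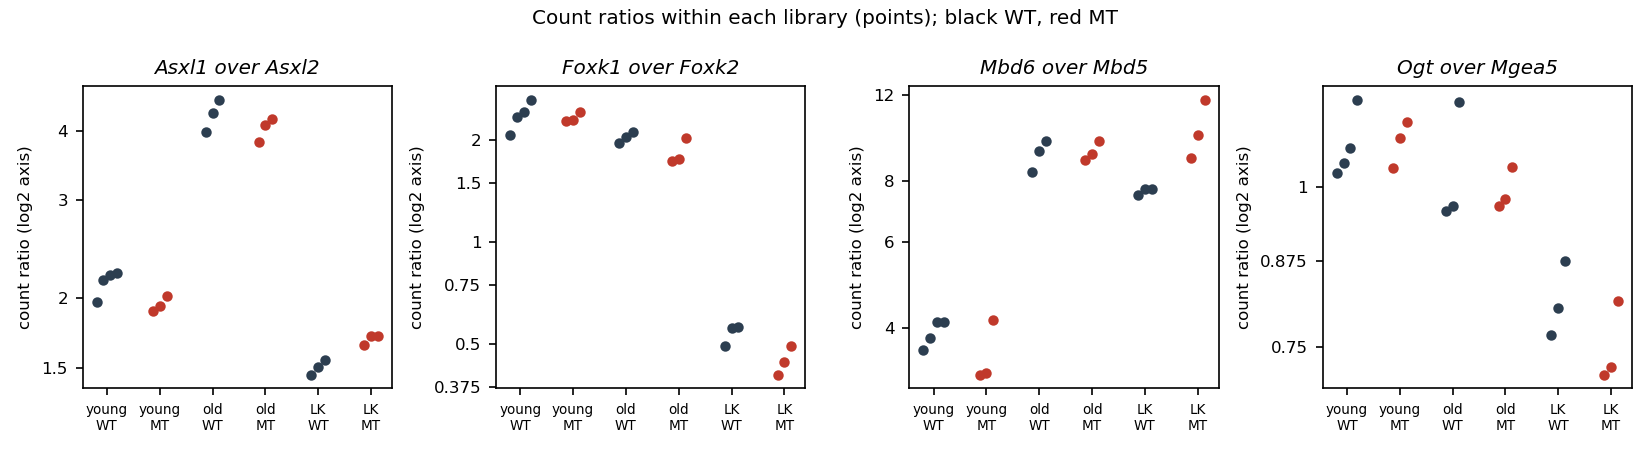
Ratio of the counts of gene pairs within each library (points, y axis on a log2 scale) by cell group (x axis), black for WT and red for MT. Foxk1 over Foxk2 lies above 1 in every CD11b library and below 1 in every LK library, and Mbd6 over Mbd5 is lowest in young CD11b cells.

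Across the 19 libraries the genes fell into patterns that follow the cell groups, so the correlations below describe 6 groups more than 19 separate points. Log2 CPM of Foxk1 and Mbd5 had Pearson's r = 0.996, Asxl1 and Ogt 0.978, and Asxl1 and Mbd6 0.947, while Bap1 and Mbd5 had -0.954 and Asxl1 and Foxk2 -0.893. Asxl1 and Asxl2 had 0.38. Among 12012 genes, those with a pattern most like that of Asxl1 included Pacs1 (r = 0.997) and Dennd5a (0.996). Those most like Asxl2 were Cit (0.990), Gm9938 (0.987) and Zcchc11 (0.987), and those most like Bap1 were Abhd16a (0.990), Nono (0.989) and Got2 (0.989).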

How the data were processed

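The authors deposited gene counts per library from RNA of sorted cells, made with a directional library kit per the labels' protocols. The submitters' processing notes name STAR, HTSeq, DESeq2 and mm10, without roles or versions; whether strand was used is not given in the sources used here. Young, old and LK libraries carry different gene lists, each without genes of fewer than 10 counts over its libraries, and only genes listed in all sets compared were tested. The 10 genes and all lists were chosen with earlier results of these data known. Transposable-element counts were not used.

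Counts were fitted in edgeR 4.0.16 (R 4.3.3, limma 3.58.1, statmod 1.5.0) as deposited, with the default expression filter, TMM factors and the robust quasi-likelihood F test. Only the groups compared entered each fit. Benjamini-Hochberg adjustment ran over all genes tested, calls needed an adjusted p under 0.05, and the SE is the log2 fold change divided by the root of F. CPM levels used TMM factors over 14246 genes and 19 libraries. Exon lengths and positions came from GENCODE M21 (GRCm38), matched by symbol or synonym for 95.7% of symbols. Kmt2d was not matched. The text names all 10 genes and, per list and comparison, examples from up to 2 called genes in each direction, those of smallest adjusted p, and the 3 genes most like Asxl1, Asxl2 and Bap1, of which 1 is not reported here. Alternatives were DESeq2 1.42.0, its size factors in edgeR, no filter, the replicate number as a block, replicates 2 and 3 summed, a sex-linked covariate, a per-library length and GC trend (splines with 5 degrees of freedom), and each library left out. The main fit was tested on simulated data for each comparison except LK against old MT, old against young MT and the interaction with age. The alternatives were not tested in this way. Lists were described by counts and medians only.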

Additional observations from a re-analysis of the deposited data

Results flagged for a closer look

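Ogt in young WT CD11b cells had 1 library far from the others. Replicate 4 read 343 CPM and the nearest, replicate 3, read 247 CPM, so the gap was 0.869 of the range of the group. The 4-library group was tested for each of the 10 genes, chance gives about 1 in 20, and no other gene was picked out. That library was 1 of 2 young libraries with Ddx3y and without Xist; Ogt is X-linked, and the other such library, MT replicate 3, had the highest Ogt level of its group (289 CPM). The part of sex in this was not tested.

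The MT against WT difference of 4 genes differed between LK and old CD11b cells by the interaction term: Asxl1 by -0.278, Asxl2 by -0.524, Hcfc1 by -0.552 and Foxk1 by -0.308 on the log2 scale. In old CD11b cells the same differences lay between -0.01 (Asxl1) and 0.07 (Asxl2) and none was called. The interaction test called 20.7% of all 13996 genes, 12% as lower. With the length and GC trend removed Hcfc1 was the only gene of the 10 still called, and with replicates 2 and 3 summed none was.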

How the results depend on the processing

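The count of called genes was 0 of 10 for young MT against WT under every alternative, and for old MT against WT under every alternative but leaving out old WT replicate 1 (range 0 to 2 over single libraries left out). Without old WT replicate 1, 13.3% of all genes were called. For LK MT against WT the count of 6 became 0 with the replicate block, 0 with replicates 2 and 3 summed, 2 with the length and GC trend removed, 0 with both the block and the trend, and 2 to 7 with single libraries left out. The share of all genes called, 29.8% in the main fit, moved too. It was 0.0213%, 0.0207%, 19.3% and 0.0142% in these fits, and 6.87% to 38.8% with single libraries left out. For the interaction of genotype with cell type the count of 4 became 2 with the replicate block, 0 with replicates summed, 1 with the trend removed, 0 with block and trend, and 2 to 7 with single libraries left out. There the share of all genes called was 20.7% in the main fit. It was 13.9%, 0%, 11.6% and 7.09% in these fits, and 8.01% to 29.6% with single libraries left out. Same-numbered deviations correlated between -0.241 and 0.284, and in no comparison did every pair pass 0.1. With so few libraries this cannot show whether a replicate number marks a shared animal or batch. In LK cells the replicate block moved all genes called from 4206 to 3, as summing replicates 2 and 3 did; in old CD11b cells it moved them from 45 to 0. For old against young WT the count of 8 became 5 with the trend removed, and for MT the 9 became 6, none lower. The share of all genes called went from 73.1% to 74.3% in WT and from 71.7% to 71.8% in MT libraries. The sex-linked covariate is left out of this count, since it set old cells against young WT replicate 4 alone and young MT replicate 3 alone. In WT the block added a lower call of Kdm1b (adjusted p = 0.0152) and a higher call of Ogt (0.45, adjusted p = 0.000956). Leaving out young WT replicate 4 added the same calls, and the block gives that library a term of its own.

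Signs of the values the text gives gene by gene turned as follows, as log2 fold changes; the cause was not tested. Among the genes given only as counts and ranges, in young or old MT against WT and in the interaction with age, further signs turned; none of these was called with all libraries. Trend removed, then with the block added: Asxl2, LK against old MT 0.23 and 0.23, old against young WT 0.34 and 0.34, MT 0.32 and 0.32; Kdm1b, old against young WT 0.13 and 0.079, MT 0.21 and 0.21, interaction with cell type 0.13 and 0.13; Mbd5, old against young WT 0.094 and 0.10, MT 0.025 and 0.026; Foxk1, old against young WT 0.0068 and 0.057; Foxk2, old against young MT 0.073 and 0.070, LK MT against WT 0.062 and 0.061. Ogt turned to 0.00078 in the interaction with cell type with the trend removed, and to -0.062 in old against young WT with the sex-linked covariate. Asxl2 in LK against old WT, not called, was -0.034 with RLE factors, -0.034 with DESeq2 and -0.043 with replicates summed, and was called higher at 0.36 with the trend removed, with or without the block. Over single libraries left out, these uncalled values ranged across 0: Asxl2 in LK against old WT from -0.021 to 0.14, Asxl1 in old MT against WT from -0.037 to 0.026, Ogt there from -0.080 to 0.039 and in the interaction with age from -0.23 to 1.83e-05, Foxk2 in LK MT against WT from -0.057 to 0.0077, Kdm1b there from -0.028 to 0.075 and in the interaction with cell type from -0.10 to 0.023, and Mbd6 in that interaction from -0.041 to 0.14.

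RLE scaling moved the median of all genes by -0.0919 at most, in LK against old MT. With the longest transcript as length, chosen after seeing the data, the order of levels per kb was the same in all 6 groups. Depth did not limit these genes, whose lowest count was 420.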

Other observations

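With age in CD11b cells, genes around the complex moved in both directions, beside calls in 73.1% of all genes in WT and 71.7% in MT libraries. Of 24 PRC1 genes 6 were higher and 13 lower in old WT cells, with Yaf2 1.86-fold higher (edgeR adjusted p = 4.83e-07) and Cbx6 at 3.21 against 17.5 CPM (adjusted p = 2.03e-07). Of 22 HCF1-partner, methyltransferase and O-GlcNAc genes 8 were higher and 9 lower. Thap11, an HCF1-recruiting factor, was 1.80-fold higher (adjusted p = 8.37e-07), and Mll3 (Kmt2c) was lower by -1.12 ± 0.11 on the log2 scale (adjusted p = 7.31e-06). Of 8 other H2A deubiquitinases 3 were higher and 2 lower, with Usp21 1.70-fold higher (adjusted p = 1.36e-06) and Mysm1 lower by -0.45 ± 0.11 (adjusted p = 0.00383). Of 9 paralogs of the complex's genes 4 were higher and 2 lower, with Mbd2 2.01-fold higher (adjusted p = 5.49e-07).

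In the interaction of genotype with cell type, Gabpa was lower by -0.45 ± 0.07 (adjusted p = 0.00610), Bmi1 by -0.41 ± 0.07 (adjusted p = 0.00610) and Mysm1 by -0.47 ± 0.11 (adjusted p = 0.0154). Over the related lists, 7 of 22 HCF1-partner genes, 6 of 24 PRC1 genes, 3 of 8 deubiquitinases and 1 of 9 paralogs were lower there and 2 PRC1 genes were higher, beside 12% of all genes called lower and 8.79% higher. With replicates 2 and 3 summed 0 of 14227 genes were called by edgeR, and 1803 had an unadjusted p under 0.05.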
